A study of Homo sapiens with 96 samples.

Results

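The colony-stimulating factor genes CSF1, CSF2 and CSF3 were followed in MDA-MB-231 cells given EGF with or without the MEK inhibitor U0126. They were found by gene symbol in the platform annotation, which paired 4 probe sets with CSF1 (207082_at, 209716_at, 210557_x_at and 211839_s_at) and 1 with CSF3 (207442_at), together 5 of the 22406 probe sets tested. No probe set was paired with CSF2 in the annotation used, so CSF2 was not analysed here. The group was picked on the signal of CSF1, which was higher with U0126 than with DMSO-EGF in 3D culture at 4 to 12 h, so the values of that contrast are given below as a description, with no test. CSF1 and CSF3 are 2 of the 11940 genes named in the table.

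CSF1 (macrophage colony-stimulating factor), CSF2 (granulocyte-macrophage colony-stimulating factor) and CSF3 (granulocyte colony-stimulating factor) are cytokines that drive survival, growth and maturation of myeloid cells. CSF1 signals through the receptor tyrosine kinase CSF1R, while CSF2 and CSF3 signal through cytokine receptors that lack kinase activity of their own and work through JAK kinases. Carcinoma cells of the breast can secrete CSF1, which recruits and maintains tumour macrophages, and macrophages in turn can supply EGF to the tumour cells.

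MDA-MB-231 is an established human breast cancer line with mesenchymal features, and MEK is the kinase that activates ERK. All results come from this single line. Cells at 80% confluence were held in low serum for 24 h. The U0126 arm received 10 uM U0126 from 30 min before 10 ng/ml EGF, the DMSO-EGF arm received the vehicle DMSO before EGF, the EGF arm received EGF without vehicle, and the control arm was untreated. At 0 h there were U0126, DMSO and control arrays taken before EGF. Total RNA was hybridised to 96 Affymetrix arrays, 32 from 3D culture (series 3D04) and 64 from 2D culture (series 2D04, repeat 2 after 0 h, and series 2D03, repeat 1 after 0 h, with 32 each). Every arm had 1 array per series at 0.5, 1, 4, 8, 12, 24 and 48 h. Culture, series and array repeat coincide for 3D, and the labels do not say whether repeats were separate cultures. In 2D p-values therefore measure the spread between these arrays, which may be technical. In 3D, with 1 array per arm and time, the times of a window served as repeats. There p-values measure how differences between arms vary from time to time, not a spread between repeats. The RNA is that of whole cultures, in which more RNA per cell and more cells that express a gene cannot be told apart.

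Values are presumed to be log2 signals relative to a reference that is not stated. They compare arrays for the same probe set and do not show how much RNA was present. The line's mesenchymal markers stood high and its luminal markers low against that reference, with vimentin (VIM) at a mean of 3.80 in 3D and 3.82 in 2D and E-cadherin (CDH1) at -3.95 in 3D and -3.77 in 2D. Output of the ERK pathway was lower with U0126. The ERK phosphatase DUSP6 was lower with U0126 than with DMSO-EGF by a log2 difference of -2.40 (SE 0.30, limma adjusted p = 3.8e-06) in 3D and -2.60 (SE 0.21, adjusted p = 2.2e-11) in 2D at 24 and 48 h. Of 12 measured ERK output and feedback genes, 12 fell in 3D and 11 fell in 2D at those times. Of all 11940 named genes, 2148 fell in 3D and 692 fell in 2D there. At the times up to 1 h after EGF, 9 of the 12 fell in 3D but only 1 passed as lower in 2D. The list medians were then -1.24 in 3D and -0.42 in 2D. Lower ERK output was thus less clearly seen in 2D at the early times.

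CSF1 stood far higher with U0126 than in the other arms in 3D from 4 h onward. Probe set 209716_at, the most variable of the 4 for CSF1 with an SD of 0.61 over all arrays, stood at 2.80, 2.61, 2.63, 2.70 and 2.41 in the 3D U0126 arrays of 4, 8, 12, 24 and 48 h. The DMSO-EGF arrays of the same times stood at 0.51, 0.24, 0.40, 1.19 and 1.18. The 5 U0126 arrays thus lay within a span narrower than that of the DMSO-EGF arrays, and none overlapped with them. In the EGF arm the values were 1.10, 1.24, 0.41, 0.49 and 0.91, and in the control arm 0.82, 0.44, 0.64, 0.48 and 1.11. All 5 U0126 arrays therefore lay above the 15 arrays of the other 3 arms, whose highest value was 1.24. Before 4 h the arms were mixed, since U0126 stood at 0.57 at 0 h, 0.74 at 0.5 h and 0.60 at 1 h, against 0.74 for DMSO at 0 h and 0.86 and 0.66 for DMSO-EGF at 0.5 and 1 h. The same separation from 4 h onward was seen for the other CSF1 probe sets. The U0126 arrays lay between 0.78 and 1.79 for 207082_at, against -0.20 to 0.41 in the other arms. They lay between 0.63 and 1.22 for 210557_x_at, against 0.03 to 0.57, and between 0.74 and 1.18 for 211839_s_at, against -0.02 to 0.48. How many of all probe sets separate in this way was not counted. The times 4, 8 and 12 h also chose CSF1, so nothing is read from this separation.

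**Figure D1:**
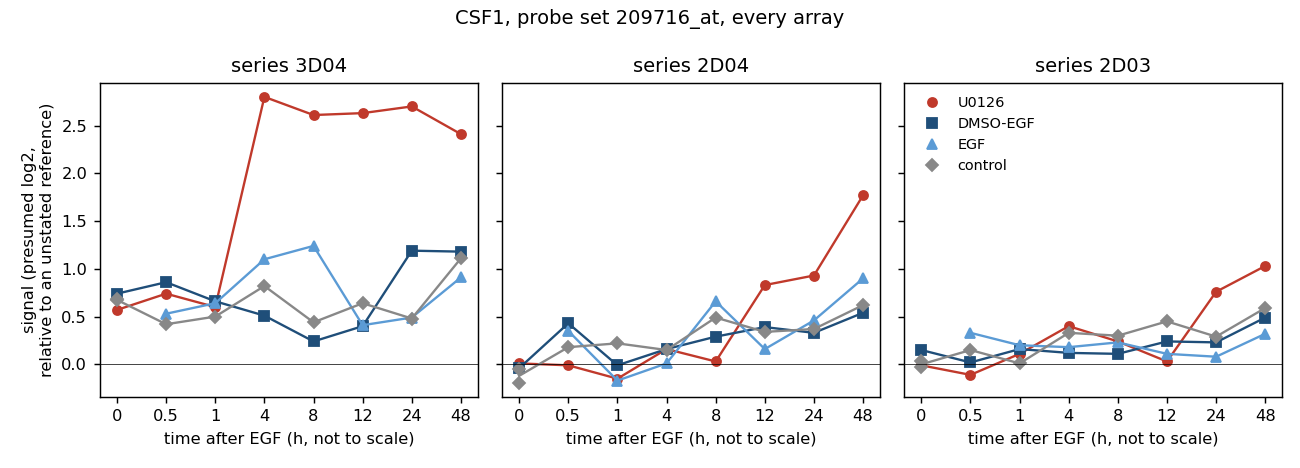
Signal of CSF1 probe set 209716_at (vertical axis, presumed log2 relative to an unstated reference) on every array against time after EGF in hours, in 1 panel per series. Points are arrays, lines join arm means, DMSO at 0 h is drawn as the start of the DMSO-EGF line, and the 3D U0126 arrays from 4 h onward lie between 2.41 and 2.80.

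At 4, 8 and 12 h in 3D, the contrast on which CSF1 was picked, the difference between U0126 and DMSO-EGF averaged 2.30 (SE 0.16), a 4.91-fold higher signal, for 209716_at. It was 1.05 (SE 0.15) for 207082_at, 0.81 (SE 0.10) for 210557_x_at and 0.71 (SE 0.10) for 211839_s_at. By size, 209716_at was the sixth highest of all 22406 probe sets and the other 3 stood at ranks 53, 114 and 171. In that contrast 5.73% of all probe sets were called higher, and nothing is read from the members' place against this share, since the contrast chose them. CSF3 stood at 0.13 (SE 0.10). Set against untreated control rather than DMSO-EGF, the difference of 209716_at was 2.05 (SE 0.16). The DMSO-EGF arrays were themselves lower on average than EGF arrays there (209716_at at -0.53, SE 0.16), the lowest difference of all 22406 probe sets between those arms. These DMSO-EGF arrays are part of the contrast that chose CSF1, which favours low values in them. Nothing is therefore read from this rank. The difference was -0.59 at 4 h, widest at 8 h and -0.01 at 12 h. At 24 and 48 h in 3D it had the opposite sign (0.7 and 0.27).

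In the 3D arrays of 24 and 48 h, which did not enter the choice of CSF1, the gene rose with U0126 in all 4 of its probe sets. Each arm had 1 array at each of these times, and the times served as repeats. For 209716_at the log2 difference was 1.37 (SE 0.20, 95% interval 0.95 to 1.79, limma adjusted p = 2.3e-05), a 2.58-fold higher signal. It was 1.23 for 207082_at (SE 0.18, adjusted p = 2.6e-05), 0.97 for 211839_s_at (SE 0.12, adjusted p = 5.5e-06) and 0.58 for 210557_x_at (SE 0.13, adjusted p = 0.0014). Of all probe sets 34.7% passed in this comparison and 18.6% passed as higher, so passing it was common, and 209716_at stood at rank 250 by size. Against untreated control the late difference of 209716_at was 1.76 (SE 0.20, adjusted p = 1.3e-06), in a comparison that 35.3% of all probe sets passed. The smallest of these changes was the least secure. For 210557_x_at the difference dropped to 0.35 (adjusted p = 0.061) after quantile normalization and stood at 0.54 (adjusted p = 0.0501) without the 48 h arrays. At 0.5 and 1 h in 3D none of the 5 member probe sets passed in limma and none had an unadjusted p under 0.05, with 0.286% of all probe sets passing. There 209716_at stood at -0.09 (95% interval -0.51 to 0.33).

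**Figure D2:**
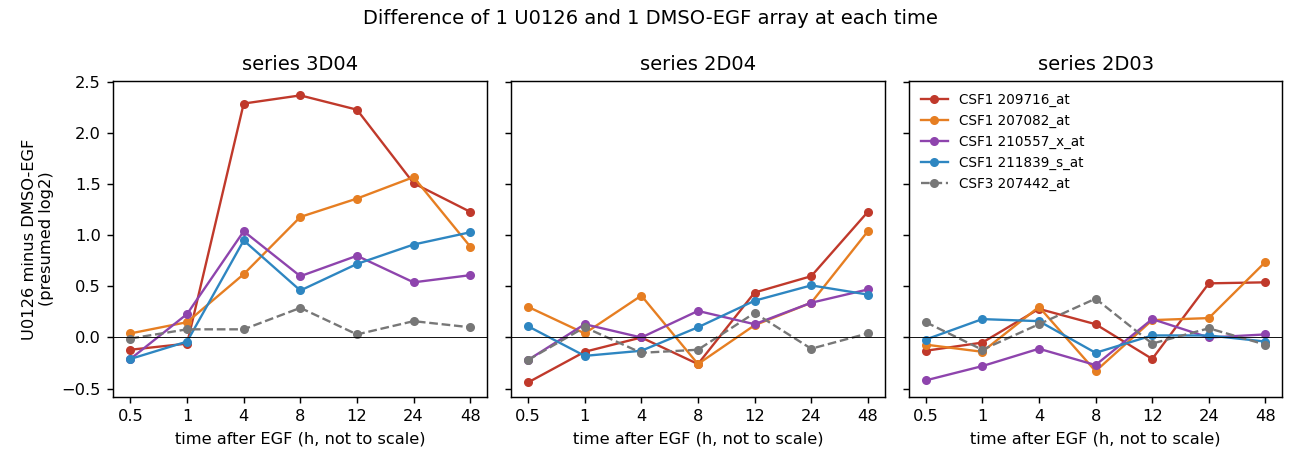
Difference between the U0126 and the DMSO-EGF array (vertical axis, presumed log2) at each time after EGF in hours for the 4 CSF1 probe sets (solid) and the CSF3 probe set (dashed), in 1 panel per series. Each point is the difference of 1 pair of arrays; in 3D04 the line of 209716_at reaches 2.37 at 8 h, and in 2D04 it reaches 1.23 at 48 h.

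In 2D culture CSF1 rose with U0126 as well, but only the late times passed the test. The U0126 arrays of 209716_at at 24 and 48 h stood at 0.93 and 1.77 in series 2D04 and at 0.76 and 1.03 in series 2D03. The DMSO-EGF arrays stood at 0.33 and 0.54 in series 2D04 and at 0.23 and 0.49 in series 2D03. Within each series both late U0126 arrays lay above all 6 arrays of the other arms at those times, whose highest values were 0.90 in 2D04 and 0.59 in 2D03. How common this is among all probe sets was not counted. The averaged difference was 0.73 (SE 0.14, 95% interval 0.44 to 1.01, limma adjusted p = 0.00036), a 1.65-fold higher signal. Probe set 207082_at also passed, at 0.58 (SE 0.16, adjusted p = 0.013). The other pair missed the threshold, with 211839_s_at at 0.23 (SE 0.11, adjusted p = 0.22) and 210557_x_at at 0.21 (SE 0.14, adjusted p = 0.45). In this comparison 10.3% of all probe sets passed, and 5.34% of all passed as higher. With the repeat number as a block 4670 probe sets passed, against 2316 without it, and at 4 to 12 h 3736 passed, against 1447 without it, while no call of a member changed.

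The late 2D difference was made up unevenly between times and series. Tested on their own, a choice made after the values were seen, the 48 h arrays gave 0.89 (SE 0.20, adjusted p = 0.0031) for 209716_at and the 24 h arrays 0.57 (SE 0.20, adjusted p = 0.19), with 6.55% and 1.89% of all probe sets passing. In series 2D04 alone, where 24.9% of all probe sets passed, all 4 CSF1 probe sets passed, with 209716_at at 0.92 (adjusted p = 0.0023) and 210557_x_at, the lowest, at 0.41 (adjusted p = 0.010). In series 2D03 alone, where 9.51% of all passed, 209716_at passed at 0.54 (adjusted p = 0.0068), while 207082_at stood at 0.47 (adjusted p = 0.20), 210557_x_at at 0.02 and 211839_s_at at -0.01. For 207082_at the averaged difference no longer passed without the 48 h U0126 array of repeat 2 (0.36, adjusted p = 0.22) or the 48 h DMSO-EGF array of repeat 1 (0.44, adjusted p = 0.13). Without the 48 h U0126 array of repeat 1, 211839_s_at passed at 0.42 (adjusted p = 0.0034). Against untreated control, 209716_at was the 1 member probe set that passed at 24 and 48 h (0.66, SE 0.14, adjusted p = 0.0012, with 10.6% of all probe sets passing). Its effect of U0126 against DMSO-EGF was larger in this window than at 4 to 12 h by 0.66 (SE 0.18, adjusted p = 0.048, with 1.78% passing), a test added after the values were seen that most other settings lost.

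At 4, 8 and 12 h, the times at which CSF1 was picked in 3D, the 2D arms overlapped. U0126 arrays of 209716_at stood at 0.16, 0.03 and 0.83 in series 2D04 and at 0.40, 0.24 and 0.03 in series 2D03. DMSO-EGF arrays stood at 0.16, 0.29 and 0.39 in series 2D04 and at 0.12, 0.11 and 0.24 in series 2D03. Apart from the 12 h U0126 array of 2D04, each U0126 value lay within the range of the other arms of its series or below it. The averaged difference was 0.06 (SE 0.12, 95% interval -0.17 to 0.30, limma adjusted p = 0.85). None of the 5 member probe sets passed and none had an unadjusted p under 0.05, while 6.46% of all probe sets passed. The U0126 arrays of series 2D03 at 8 and 12 h had a low 5-prime against 3-prime actin signal, a measure of RNA quality, at -1.26 and -1.08 against -0.36 to 0.31 on the other 94 arrays. When this pair was left out, no member passed at 4 to 12 h either. At 0.5 and 1 h none of the 5 passed (209716_at at -0.19, 95% interval -0.48 to 0.10), with 0.00893% of all probe sets passing.

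**Figure D3:**
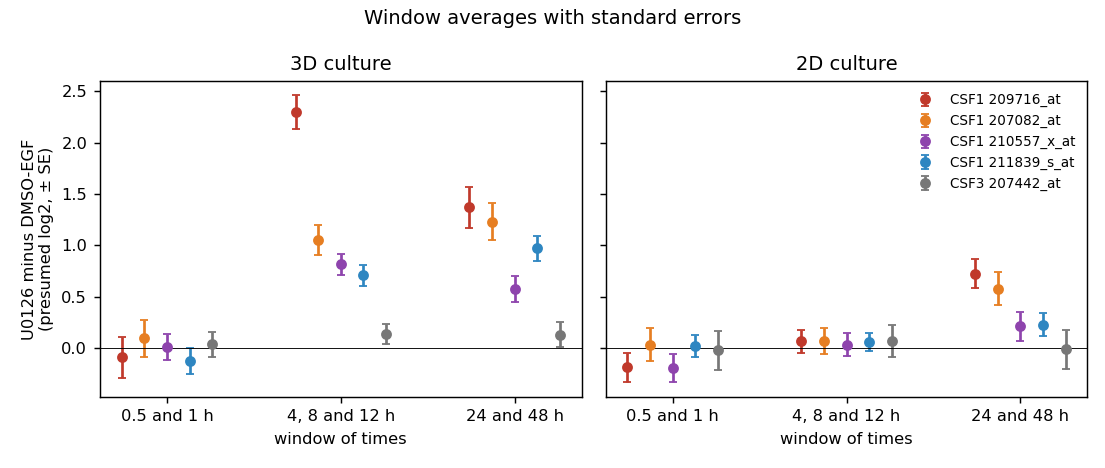
Difference between U0126 and DMSO-EGF (vertical axis, presumed log2) averaged over 3 windows of time for each member probe set, with 3D culture on the left and 2D culture on the right. Points are fitted differences and bars standard errors; in 3D at 4, 8 and 12 h, the contrast that chose CSF1, 209716_at stands at 2.30 and in 2D at 0.06.

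The difference between cultures was tested directly at the times that did not choose CSF1. At 24 and 48 h the U0126 effect was larger in 3D than in 2D by 0.74 for 211839_s_at (SE 0.16, limma adjusted p = 0.00095), and 8.48% of all probe sets passed this test. For 209716_at it was larger by 0.65 (SE 0.23, 95% interval 0.18 to 1.11, adjusted p = 0.076), which missed the threshold, as did 207082_at at 0.65 (adjusted p = 0.11) and 210557_x_at at 0.37 (adjusted p = 0.24). Quantile normalization moved the difference of 211839_s_at to 0.48 (adjusted p = 0.063), and leaving out the 48 h arrays moved it to 0.65 (adjusted p = 0.071). Without the 48 h arrays 207082_at passed at 1.31 (adjusted p = 0.0074), so this test turned on which of the 2 late times was used. At 0.5 and 1 h none passed, with 209716_at at 0.10 (95% interval -0.36 to 0.56) and 0.0536% of all probe sets passing. At 4 to 12 h the difference between cultures was 2.23 for 209716_at, given as a description. Because 3D is a single series, culture and series cannot be told apart.

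CSF1 also stood higher in untreated cells of 3D culture. The 9 control arrays of 209716_at ran between 0.42 and 1.11 with a median of 0.64 in 3D, against -0.19 to 0.62 with a median of 0.22 in series 2D04 and -0.03 to 0.59 with a median of 0.29 in series 2D03. The ranges overlap, and the difference of the means was 0.40, larger than that of 92.8% of probe sets. The other CSF1 probe sets were higher in 3D controls by 0.17 to 0.29. Untreated 2D cells also differed between times, as 209716_at was higher in the 48 h than in the 0 h controls by 0.67 (SE 0.17, limma adjusted p = 0.017), with 4.33% of all probe sets passing. The 48 h controls stood at 0.62 and 0.59, above the 4 controls at 0 h, which ran between -0.19 and 0.03. This call was lost without either 48 h control (adjusted p = 0.10 without repeat 1 and 0.22 without repeat 2) and without the 0 h control of repeat 2 (adjusted p = 0.052). The other 3 CSF1 probe sets did not pass.

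No change of CSF1 or CSF3 was detected with EGF on its own, which does not show that there was none. In no window of either culture did a member probe set pass between EGF and control, and none had an unadjusted p under 0.05. Across the whole table limma called 0 probe sets in each of these comparisons, with 474 at an unadjusted p under 0.05 in 2D and 760 in 3D at 4 to 12 h. For 209716_at at 4 to 12 h the difference was 0.28 (95% interval -0.06 to 0.63) in 3D and -0.12 (95% interval -0.35 to 0.12) in 2D. By size the 3D difference of 209716_at stood at rank 44 of 22406 probe sets, while that of 207082_at stood at rank 17562. For 209716_at it changed sign between times, at 0.28, 0.80 and -0.23 at 4, 8 and 12 h. With a time left out its average ranged from 0.025 to 0.54. The vehicle comparison, DMSO-EGF against EGF, called no probe set in 2D in any window or in 3D at the early and late times, and was not tested in 3D at 4 to 12 h. In 3D at 24 and 48 h 209716_at stood at 0.49 in it (SE 0.20, adjusted p = 1.00), at rank 14 by size, with 2 of the 5 members at an unadjusted p under 0.05. After pre-treatment alone, U0126 against DMSO at 0 h in 2D, it stood at -0.06 (SE 0.20).

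Over all arrays the 4 CSF1 probe sets were correlated to different extents. After each series' mean was removed, their correlations over 96 arrays ran from 0.58 for 207082_at with 210557_x_at to 0.82 for 209716_at with 211839_s_at, over arrays that share arms and times. The arrays include those that chose CSF1, so correlations, ranges and SDs are descriptions with no test. The ranges of the 4 probe sets over all arrays also differed, from -0.19 to 2.80 for 209716_at, from -0.35 to 1.79 for 207082_at, from -0.44 to 1.22 for 210557_x_at and from -0.26 to 1.18 for 211839_s_at. A wider range places a probe set among those that vary more. The SD of 209716_at exceeded that of 97.2% of probe sets, and that of 211839_s_at, the lowest of the 4, exceeded that of 72.3%. In the time course in 3D, 209716_at was widest apart at 8 h (2.37) and 207082_at at 24 h (1.57). The suffix of 210557_x_at marks a probe set some of whose probes may also match other transcripts.

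CSF3 showed no such pattern. Its probe set 207442_at ran from -0.37 to 0.61 over the 96 arrays, with an SD of 0.21 that exceeded that of 57.4% of probe sets. In 3D from 4 h onward the U0126 arrays stood at -0.19, 0.11, -0.21, -0.17 and -0.25 at 4, 8, 12, 24 and 48 h. The DMSO-EGF arrays stood at -0.27, -0.18, -0.24, -0.33 and -0.35 at the same times. The U0126 value was the higher of the pair at each of these times, but the arms overlapped, and the 15 arrays of the other arms ran from -0.36 to 0.02. At 24 and 48 h the averaged difference was 0.13 (SE 0.12, 95% interval -0.12 to 0.38, limma adjusted p = 0.47) in 3D and -0.01 (SE 0.19, 95% interval -0.40 to 0.38, adjusted p = 0.99) in 2D. At 4 to 12 h in 2D it was 0.07 (SE 0.16, adjusted p = 0.88). CSF3 also stood at different values in the 3 series. Its controls had a median of 0.19 in series 2D03, against -0.11 in series 2D04 and -0.13 in series 3D04. Within 2D03 the highest values were 0.61 in EGF, 0.58 in U0126 and 0.42 in control, all at 8 h. These values do not show whether CSF3 RNA was present at all, because the reference is not stated.

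**Figure D4:**
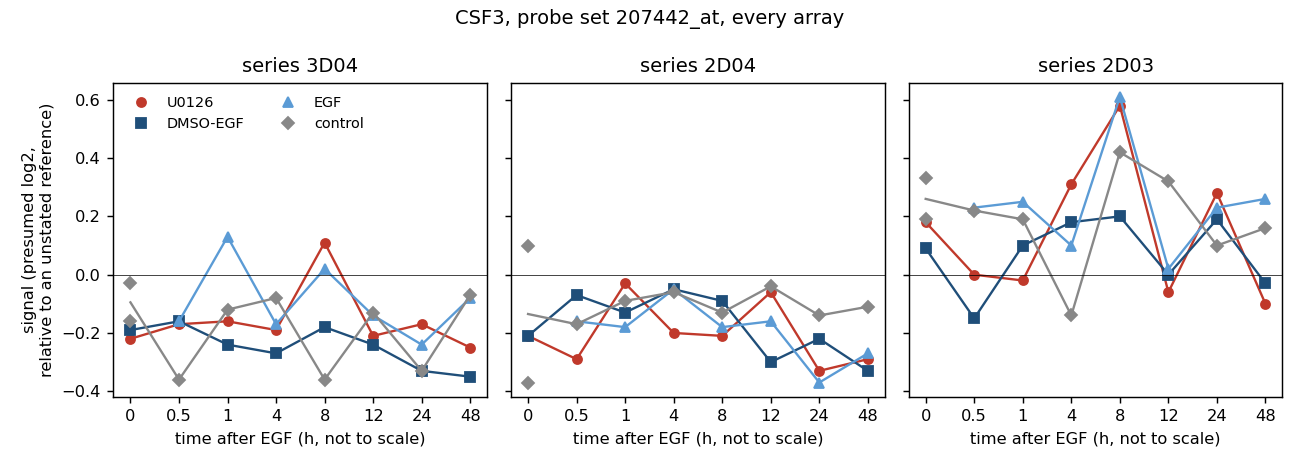
Signal of CSF3 probe set 207442_at (vertical axis, presumed log2 relative to an unstated reference) on every array against time after EGF in hours, in 1 panel per series. Points are arrays and lines join arm means, DMSO at 0 h is drawn as the start of the DMSO-EGF line, and all values lie between -0.37 and 0.61.

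The receptors of these cytokines did not pass between U0126 and DMSO-EGF in any window of either culture. CSF1R, the CSF3 receptor CSF3R, the CSF2 receptor's ligand-binding chain CSF2RA and its signalling chain CSF2RB were covered by 7 probe sets. Their differences between U0126 and DMSO-EGF at 24 and 48 h ran from -0.23 to 0.17 in 3D (2 of 7 at an unadjusted p under 0.05 in limma) and from -0.19 to 0.14 in 2D (0 of 7). Of all 22406 probe sets, 9266 had an unadjusted p under 0.05 and 34.7% passed in 3D at those times, and 4600 had one and 10.3% passed in 2D. CSF1R itself stood at -0.06 (SE 0.10, adjusted p = 0.73) in 3D and -0.01 (SE 0.19, adjusted p = 0.99) in 2D. The lowest adjusted p of any receptor probe set was 0.054, for CSF2RA 211287_x_at in 2D at 4 to 12 h (-0.48, SE 0.15). The U0126 and DMSO-EGF arms were also compared for 9 macrophage and monocyte markers, among them CD14, CD68, CD163 and the transcription factor SPI1. None of the 9 passed at 24 and 48 h in 3D or in 2D, with 0 and 1 at an unadjusted p under 0.05. A comparison of arms does not show whether myeloid cells were present.

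Other genes around the colony-stimulating factors moved in both directions at 24 and 48 h. The background was 2462 named genes that rose and 2148 that fell of 11940 in 3D, and 737 that rose and 692 that fell in 2D, with median differences of 0.03 and 0.01. The genes named from each list below were taken from those with its smallest adjusted p. The 2D fit left out the pairing of repeats. With the repeat number as a block 4670 probe sets passed in 2D at these times, against 2316 without it. Blocked values of list genes are not given here. A gene that passed in 3D but not in 2D is therefore not shown to differ between cultures. Of 12 other haematopoietic growth factors, 5 rose and 2 fell in 3D (list median 0.13), and 1 rose and 1 fell in 2D (list median 0.03). KITLG, the stem cell factor and ligand of the CSF1R-related receptor KIT, rose by 0.72 (SE 0.09, limma adjusted p = 6.8e-06) in 3D and stood at 0.09 in 2D. IL11, a cytokine that supports megakaryocytes, fell by 1.13 (SE 0.15) in 3D and fell by 3.42 (SE 0.81) in 2D. LIF, a relative of IL6, fell by 0.70 (SE 0.14) in 3D and stood at -0.63 (adjusted p = 0.20) in 2D. IL15, a growth factor of T and NK cells, stood at 0.11 (adjusted p = 0.54) in 3D and rose by 0.91 (SE 0.18) in 2D.

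Genes that act below cytokine receptors included several that rose. Of 13 JAK-STAT genes, 5 rose in 3D and 3 in 2D, with list medians of 0.18 and 0.14. Of all 11940 named genes, 2462 rose and 2148 fell in 3D, and 737 rose and 692 fell in 2D. SOCS2, a feedback inhibitor of cytokine signalling, rose by 1.83 (SE 0.16) in 3D and by 0.62 (SE 0.20, limma adjusted p = 0.045) in 2D. STAT3, a transcription factor activated by CSF3 among others, rose by 0.82 (SE 0.09) in 3D and by 0.34 (SE 0.07) in 2D. PTPN6, a phosphatase that dampens signalling from cytokine receptors, rose by 0.97 (SE 0.20) in 3D and by 0.72 (SE 0.16) in 2D. Of 11 RAS and PI3K adaptors, 3 rose and 2 fell in 3D and 1 rose in 2D (list medians 0.20 and -0.05). The ubiquitin ligase CBLB rose by 0.77 (SE 0.11) in 3D and by 0.71 (SE 0.15) in 2D, while the adaptor GRB2 fell by 0.67 (SE 0.10) in 3D and stood at -0.24 (adjusted p = 0.23) in 2D.

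Lists of myeloid chemoattractants and of NF-kB targets each held genes that rose and genes that fell in 3D. The background among 11940 named genes was 2462 that rose and 2148 that fell in 3D, and 737 and 692 in 2D. Of 14 macrophage and myeloid chemoattractants, 2 rose and 4 fell in 3D and 1 fell in 2D (list medians -0.03 in each). The monocyte chemoattractant CCL2 fell by 0.49 (SE 0.12, limma adjusted p = 0.0026) in 3D and stood at -0.68 (adjusted p = 0.11) in 2D. Endothelin 1 (EDN1) fell by 0.67 (SE 0.10) in 3D and by 0.81 (SE 0.20) in 2D. Of 14 NF-kB target cytokines and inhibitors, 3 rose and 5 fell in 3D and 1 fell in 2D (list medians -0.19 and -0.15). The neutrophil chemoattractant CXCL8 fell by 4.32 (SE 0.38) in 3D and stood at -2.28 (SE 1.10, adjusted p = 0.23) in 2D. NFKBIA, the inhibitor of NF-kB, rose by 1.01 (SE 0.10) in 3D and stood at 0.58 (adjusted p = 0.17) in 2D. CSF1 thus rose in 3D while CXCL8 and CCL2 fell on the same arrays.

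A pair of lists covered steps after transcription. Colony-stimulating factor transcripts can carry AU-rich elements, which set the life of the RNA, and membrane-bound CSF1 is released by sheddases. Of 8 AU-rich element decay and stability factors, 1 rose and 3 fell in 3D (list median -0.20), and none passed in limma in 2D, with 2 at an unadjusted p under 0.05. The translational repressor TIA1 rose by 1.22 (SE 0.12) and the decay factor ZFP36L1 fell by 0.51 (SE 0.15) in 3D. Of 9 sheddases, 1 rose and 3 fell in 3D (list median -0.03), and none passed in limma in 2D, with 1 at an unadjusted p under 0.05. ADAM9 fell by 0.63 (SE 0.11) and ADAM8 by 0.62 (SE 0.17) in 3D. The protein and its release were not measured.

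The genes whose pattern was most like that of CSF1 were found by Pearson correlation with 209716_at over the 96 arrays after each series' mean was removed, 1 probe set per gene. They were RXRA, a nuclear receptor (r = 0.84), NR3C1, the glucocorticoid receptor (0.83), BCL3, a nuclear member of the IkB family (0.79), MEGF9, a membrane protein with EGF-like repeats (0.79), and RIPK4, a kinase of epithelial differentiation (0.78). The arrays include those that chose CSF1, and they share arms and times, so these values are descriptions with no test. In 3D at 4 to 12 h the 5 genes were higher with U0126 than with DMSO-EGF by 0.79 to 1.31, less than the 2.30 of CSF1. In 2D at 4 to 12 h NR3C1 stood at 0.39 (SE 0.09), BCL3 at 0.50 (SE 0.13), MEGF9 at 0.41 (SE 0.21), RXRA at 0.27 (SE 0.08) and RIPK4 at 0.10 (SE 0.13), where CSF1 stood at 0.06 (SE 0.12). At 24 and 48 h in 2D the 5 genes stood between 0.47 for RIPK4 and 1.08 for MEGF9. The lowest correlations were those of G0S2, an inhibitor of lipolysis (-0.81), PTX3, a secreted pentraxin (-0.78), and the acyltransferase AGPAT5 (-0.78). G0S2 stood at -2.37 (SE 0.17) in 3D and -1.82 (SE 0.16) in 2D at 24 and 48 h. For CSF3 the highest correlation was 0.47, with SOX10, and the lowest -0.45, with BCR.

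**Figure D5:**
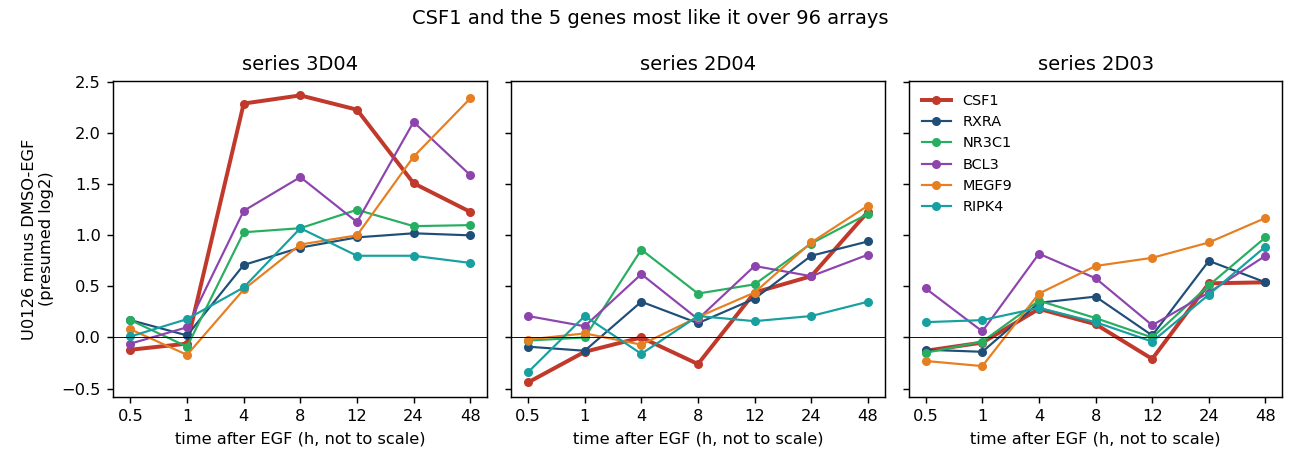
Difference between the U0126 and the DMSO-EGF array (vertical axis, presumed log2) at each time after EGF in hours for CSF1 (209716_at, thick line) and the 5 genes most like it, in 1 panel per series. Each point is the difference of 1 pair of arrays; in 3D04 at 4 h CSF1 stands at 2.29 and the other genes at 0.47 to 1.24.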

How the data were processed

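Expression was measured in 96 samples of MDA-MB-231 cells. The values were the deposited table of the authors, presumed log2 because RMA, which returns log2 signals, is named per the submitters' processing notes. The log base, centring and RMA version are not given in the sources used here. Values lie on either side of 0 and array medians lie near it, which does not show how they were centred. VIM had means of 3.80 in 3D and 3.82 in 2D, so its 0 was not the mean of these arrays. Fold changes assume log2, and no absolute levels are given. Precision is limited by how many arrays there are.

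Of 22930 probe sets, 524 array controls were left out, and 22406 were tested. Symbols came from the platform annotation, in which 19415 of these had 1 symbol, 125 several and 2866 were unlisted. Genes other than the members were read from their probe set with the largest SD, which can favour the one that changes most.

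Limma 3.58.1 in R 4.3.3 (lmFit, eBayes with a variance trend) was used, with Benjamini-Hochberg adjustment over all probe sets and a threshold of 0.05. The 2D fit took a mean per arm and time over 64 arrays (33 residual degrees of freedom). The 3D fit took arm by window means with a term per time over 28 arrays after 0 h (12 residual degrees of freedom), so times served as repeats. The contrast that chose CSF1 shares the spread estimate of this fit. The difference between cultures came from 1 model with a term per series and time (45 residual degrees of freedom). Windows were 0.5 and 1 h, 4 to 12 h, and 24 and 48 h. The label 05h was read as 0.5 h. The 2D, 3D and between-culture fits were each run on simulated data for 1 late contrast. The simulated noise was independent between arrays, without the pairing of the 2D repeats, and other settings were not simulated.

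The members and gene lists were chosen with earlier results of these data known. Named genes were all member probe sets, the 4 receptors, DUSP6, SPRY4 and EGR1, up to 4 per list with the smallest adjusted p, and for each member the 5 most and 3 least correlated genes. Repeat numbers pair the 2D samples through the series label: over 465 pairs of groups the deviations from group means correlated at 0.197 to 0.790 (median 0.600). The alternatives were filters, normalizations, probe set rules, variance and weight settings, the replicate block, each 2D series alone, and arrays or times left out. Added after the values were seen were single 2D times, the 2D late window against the middle window, and U0126 against control in 3D.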

Additional observations from a re-analysis of the deposited data

Results flagged for a closer look

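In 2D the effect of U0126 on CSF1 209716_at was larger at 24 and 48 h than at 4 to 12 h by 0.66 (SE 0.18, limma adjusted p = 0.048, with 1.78% of all probe sets passing), a difference between times that was tested after the values were seen. At 24 and 48 h the effect was larger in 3D than in 2D by 0.74 for CSF1 211839_s_at (adjusted p = 0.00095), a difference between cultures. The call of 209716_at was lost under settings given in the next part, and that of 211839_s_at after quantile normalization (0.48, adjusted p = 0.063) and without the 48 h arrays (0.65, adjusted p = 0.071).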

How the results depend on the processing

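Over 110 results, 1647 of 1693 values from other settings kept their side of the threshold. Most of the 110 results did not pass in the main fit, so this count says little about those that did. The late rise of CSF1 209716_at passed under every setting run, in 3D and in 2D, with 1.23 to 1.51 in 3D when a time was left out and 0.54 to 0.91 in 2D when an array was left out. For 209716_at the late difference between 3D and 2D passed without the lower-SD probe sets (0.65, adjusted p = 0.048) and with the mean of a gene's probe sets (0.60, adjusted p = 0.00094). The SD filter was taken over all arrays, among them those that chose CSF1, and left the difference itself unchanged. Nothing is read from the pass under that filter. The gain between the middle and late 2D windows no longer passed after median centring (0.66), quantile normalization (0.58), averaging of probe sets (0.38), array weights (0.66) or without the 2 low-actin arrays (0.56). With single arrays left out it ranged from 0.48 to 0.85 and passed in 3 of 20 cases. The 2D difference between 48 h and 0 h controls did not pass with averaged probe sets (0.32) and ranged from 0.62 to 0.70 with single arrays left out. The causes were not tested. With the replicate block the late 2D value of 209716_at was 0.73 (SE 0.13, adjusted p = 5.9e-05). The block changed no call of a member, while the number of probe sets called in that comparison was 4670, against 2316 without it. Culture, series and the number of arrays limit what 3D can show.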
